A study of Mus musculus with 12 samples.

Results

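The interleukin-6 (IL-6) family and its signalling chain were followed in mouse skin through 10 genes: the ligands *Il6*, *Il11*, *Osm* and *Lif*, the receptor chains *Il6ra*, *Il6st*, *Osmr* and *Lifr*, the transcription factor *Stat3* and the inhibitor *Socs3*. These genes were chosen by name, with earlier results of these data known. All 10 were found among the 56923 genes of the count table and had enough reads to be tested. Back skin came from 12 female mice aged 8 to 10 weeks on the C57BL/6 background, in 4 groups of 3. The wild-type (WT) mice were littermates, and the other mice are titled LCN2 KO in the sample labels, carry the genotype entry LCN2 knockdown there, and are described in the study's methods as *Lcn2-/-* mice bought from the Jackson Laboratory. In each genotype 3 mice received 5% imiquimod (IMQ) cream on the shaved back for 6 days, a treatment that produces psoriasis-like lesions, and 3 control mice received vehicle cream, although the labels enter their treatment as none. *Lcn2* encodes lipocalin 2, a secreted protein of neutrophils and epithelia that binds iron-carrying siderophores.

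Cytokines of the IL-6 family bind receptor complexes that share the signalling chain *Il6st*. IL-6 first binds its receptor *Il6ra*, oncostatin M (encoded by *Osm*) uses *Osmr* together with *Il6st*, and leukaemia inhibitory factor (encoded by *Lif*) uses *Lifr* together with *Il6st*. The bound receptors activate JAK kinases, which phosphorylate STAT3, and STAT3 then enters the nucleus and raises genes such as *Socs3*, whose product binds *Il6st* and dampens the signal. Keratinocytes of the epidermis carry *Osmr*, and STAT3 activity in keratinocytes is a known feature of psoriatic skin. The counts report messenger RNA, not protein or phosphorylated STAT3.

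A pair of promoter windows is shown because they belong to the ligand that names the family and to the gene through which STAT3 activity is usually read. The windows came from RefSeq on GRCm38.p6 and hold up to 250 bases before a gene's RefSeq start. Capitals mark letters that match a searched motif on either strand: TGANTCA (AP-1) and the NF-kB motif (GGG, any 2 bases, TT, any base, CC) in *Il6*, and TTCNNNGAA (STAT) in *Socs3*, and the matches do not overlap each other.
*Il6*, chr5:30012864-30013113, plus strand: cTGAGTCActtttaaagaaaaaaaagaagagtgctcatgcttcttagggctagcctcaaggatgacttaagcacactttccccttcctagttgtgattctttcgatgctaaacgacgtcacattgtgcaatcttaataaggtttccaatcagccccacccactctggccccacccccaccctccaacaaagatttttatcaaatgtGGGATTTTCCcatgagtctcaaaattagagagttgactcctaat
*Socs3*, chr11:117969452-117969616, minus strand: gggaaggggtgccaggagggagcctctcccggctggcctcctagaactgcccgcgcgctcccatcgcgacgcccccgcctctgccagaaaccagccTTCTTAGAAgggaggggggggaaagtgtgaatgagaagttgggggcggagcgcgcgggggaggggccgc
The *Socs3* stretch of 165 bases leaves out the part of its window that lies in an annotated exon. By the GENCODE annotation the gene spans chr11:117966079-117970047 on the minus strand. The stretch therefore lies inside the annotated gene, downstream of its outermost start. Its STAT match, TTCTTAGAA, lay 154 to 146 bases before the RefSeq start, and 7.02% of the 32851 RefSeq windows of the mouse genome held such a match. The *Il6* window held TGAGTCA at 249 to 243 bases and GGGATTTTCC at 44 to 35 bases before the start, motifs held by 6.75% and 4.11% of all windows. Among the 9 members with a window, *Lif* and *Il11* also held an AP-1 match. Matches of letters describe the sequence, and binding was not measured here.

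Library totals ran from 16448226 to 28592110 counted reads. Levels are given as CPM, counts scaled to a common, TMM-normalized library total, and 3 counts were worth between 0.0985 and 0.202 CPM, which takes account of counting error alone. *Lcn2* itself had 136, 201 and 86 counts in the WT control mice and 320, 173 and 357 counts in the control mice labelled LCN2 KO, which does not show the loss that the label names. After IMQ it had 1010, 2723 and 1572 counts in WT mice and 561, 511 and 830 counts in mice labelled LCN2 KO, and that log2 difference of -1.49 did not pass the test (adjusted p = 0.0525, edgeR) and did with DESeq2 (adjusted p = 0.00481). It became -0.85 (adjusted p = 0.0821) without WT IMQ mouse 2, and in the 6 fits without 1 mouse it ran from -1.77 to -0.85 and was called in 0. The counts cover the whole gene and do not show which exons were read. Every comparison by genotype below is therefore one of mice labelled LCN2 KO. WT IMQ mouse 2 stood apart from the other WT IMQ mice in several genes, among them *Lcn2* and *Clcf1*, and values without it are given where it decides a result. Markers of retina, the tissue named in the labels' extraction text, summed to at most 3.03 CPM in any mouse, while keratinocyte markers summed to between 5540 and 41010 CPM.

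**Figure D1:**
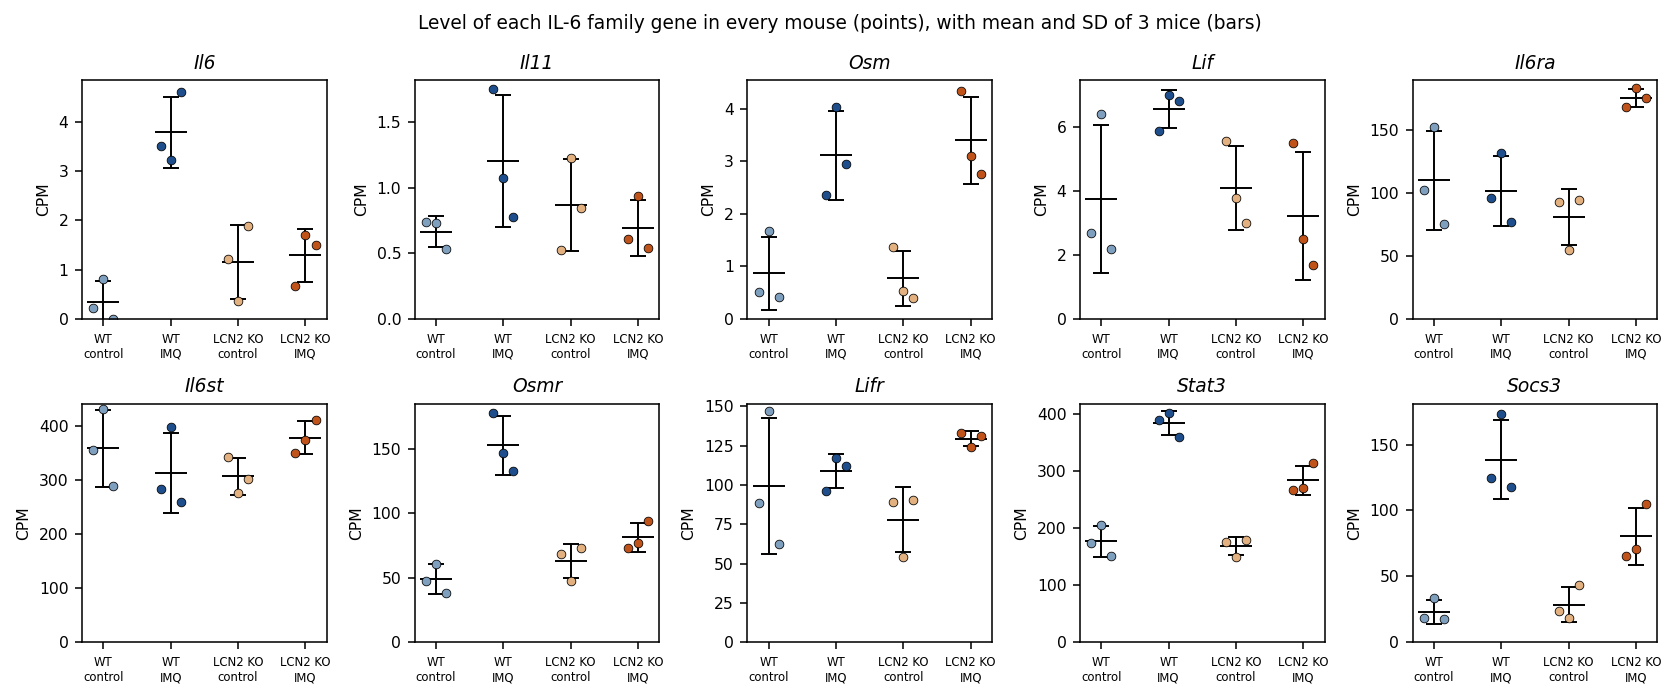
Level of each of the 10 genes in CPM (linear axes from 0) in the 4 groups, with 1 point per mouse and bars for the mean and SD of 3 mice (the lower bar of *Il6* in WT control mice is not drawn below 0). In WT mice *Il6*, *Osm*, *Osmr*, *Stat3* and *Socs3* lie higher with IMQ than in every control mouse, and *Il6ra* lies highest in the IMQ-treated mice labelled LCN2 KO.

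IMQ raised a ligand pair, a receptor chain, *Stat3* and its inhibitor in WT skin. Of the 10 genes, 5 were called higher and 0 lower (edgeR quasi-likelihood test, Benjamini-Hochberg adjusted p under 0.05), against 14.2% of all 18529 tested genes called higher and 14.3% called lower. The median log2 fold change was 0.97 over the 10 genes and -0.02 over all tested genes. The 3 IMQ mice lay above all 3 control mice for 6 of the genes and below them for 0, against 20.1% and 20.6% of all tested genes. The p-values compare groups of 3 mice each. The spread between mice that they use was estimated over the mice of every group, those labelled LCN2 KO included.

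Among the ligands, *Il6* was at 0.231, 0.817 and 0 CPM in WT control mice, where the library at 0 had a floor of 0.159 CPM, and at 3.51, 3.23 and 4.60 CPM in WT IMQ mice. All 3 IMQ mice lay above all controls, and the controls were near the detection floor. The rise was 3.37 on the log2 scale (SE 0.83, adjusted p = 0.0108, edgeR), about 10.3-fold, and 4.90 without WT control mouse 2, which held most of the control reads. *Osm* was at 0.508, 1.68 and 0.425 CPM without IMQ and at 2.36, 4.03 and 2.95 CPM with IMQ. The groups did not overlap, and *Osm* rose 3.52-fold (1.81 on the log2 scale, SE 0.56, adjusted p = 0.0313, edgeR). This call was lost on leaving out WT control mouse 1 (adjusted p = 0.111), WT control mouse 3 (0.0962), WT IMQ mouse 1 (0.0524), WT IMQ mouse 2 (0.0767) or WT IMQ mouse 3 (0.0663), with log2 fold changes from 1.50 to 1.98, and without WT control mouse 2 the log2 fold change was 2.72 (adjusted p = 0.00533).

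*Il11* and *Lif*, the other ligands, did not pass the test. *Il11* averaged 0.667 ± 0.117 CPM in WT control and 1.20 ± 0.503 CPM in WT IMQ mice (SD, n = 3 each), a log2 difference of 0.83 with a 95% interval from -0.16 to 1.83. *Lif* was at 2.68, 6.40 and 2.18 CPM in control and at 5.88, 6.99 and 6.83 CPM in IMQ mice. Control mouse 2 reached the level of the treated mice, and the log2 difference of 0.80 (adjusted p = 0.223, edgeR) became 1.43 (adjusted p = 0.0388) without it.

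Of the receptor chains, *Osmr* changed in WT skin and the other 3 did not pass the test. *Osmr* was at 47.6, 61.0 and 38.3 CPM in WT control mice and at 178, 147 and 133 CPM in WT IMQ mice. Every IMQ mouse was more than 2-fold above every control mouse, and *Osmr* rose 3.12-fold (log2 fold change 1.64, SE 0.20, adjusted p = 0.00016, edgeR). The call held on leaving out each mouse in turn, with log2 fold changes from 1.49 to 1.83. *Il6st*, the shared chain, averaged 359 ± 71.1 CPM in control and 313 ± 73.8 CPM in IMQ mice (SD, n = 3 each). The 95% interval of its log2 difference ran from -0.60 to 0.21. *Il6ra* differed by -0.12 (interval -0.72 to 0.49) and *Lifr* by 0.13 (interval -0.46 to 0.72) on the log2 scale.

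*Stat3* was at 174, 206 and 151 CPM in WT control mice and at 390, 401 and 360 CPM in WT IMQ mice. The groups were well separated, and *Stat3* rose 2.17-fold (log2 fold change 1.12, SE 0.13, adjusted p = 0.000134, edgeR). *Stat3* overlaps *Stat5a* on the opposite strand by 72 bases, and the strand setting of the counting is not given in the sources used here. *Socs3* was at 18.3, 34.0 and 17.5 CPM without IMQ and at 125, 173 and 118 CPM with IMQ. It rose 5.94-fold (log2 fold change 2.57, SE 0.36, adjusted p = 0.000427, edgeR), and the calls of *Il6*, *Osmr*, *Stat3* and *Socs3* held in each of the 6 fits without 1 mouse.

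In bulk skin, a change in the number of cells of a type and a change in RNA per cell cannot be told apart. Neutrophil markers summed to between 15.4 and 43.0 CPM in WT control mice and to between 6092 and 10208 CPM in WT IMQ mice, with 8 of 8 tested markers called higher. Keratinocyte markers summed to between 5540 and 9067 CPM in WT control and to between 30970 and 41010 CPM in WT IMQ mice, with 9 of 10 called higher. Fibroblast markers ran from 10372 to 17416 CPM and from 10393 to 11051 CPM, with 3 of 8 called lower, macrophage and monocyte markers from 1179 to 4094 CPM and from 2920 to 4478 CPM, with 3 of 10 called higher, and T cell markers from 58.1 to 93.6 CPM and from 23.9 to 56.9 CPM, with 6 of 9 called lower. Their part in the changes of the 10 genes was not tested.

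IMQ raised *Osm*, *Il6ra*, *Stat3* and *Socs3* in mice labelled LCN2 KO. Of the 10 genes, 4 were called higher and 0 lower, against 14.1% and 11.2% of all tested genes, and the median log2 fold change was 0.55, against -0.05 over all tested genes. The treated mice lay above all control mice for 7 genes and below them for 0, against 23.1% and 22.8% of all tested genes.

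*Il6* was at 1.22, 0.373 and 1.88 CPM in the control mice labelled LCN2 KO and at 0.672, 1.70 and 1.50 CPM after IMQ, and the groups overlapped. The log2 difference was 0.15 with a wide 95% interval from -1.51 to 1.80 (adjusted p = 0.908, edgeR). *Osm* was at 1.38, 0.533 and 0.402 CPM without IMQ and at 4.34, 3.10 and 2.76 CPM with IMQ. It rose by 2.09 on the log2 scale (SE 0.56, adjusted p = 0.0192, edgeR), a call lost without control mouse 2 (adjusted p = 0.0681), control mouse 3 (0.0729) or IMQ mouse 1 (0.0621), with log2 fold changes from 1.79 to 1.90, and without control mouse 1 the log2 fold change was 2.85. *Il11* and *Lif* had negative log2 differences of -0.30 and -0.35, neither past the test (adjusted p = 0.675 and 0.617, edgeR).

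*Il6ra* was the receptor chain called higher in these mice. It was at 92.6, 54.9 and 94.2 CPM without IMQ and at 168, 183 and 175 CPM with IMQ, and no values overlapped. The rise was 2.18-fold (log2 fold change 1.12, SE 0.28, adjusted p = 0.0136, edgeR) and held on leaving out each mouse. *Osmr* was at 68.3, 48.0 and 72.8 CPM without IMQ and at 73.5, 76.9 and 94.0 CPM with IMQ, a log2 difference of 0.37 with a 95% interval from -0.06 to 0.80 (adjusted p = 0.192, edgeR). Its highest control mouse and lowest treated mouse lay close together. *Lifr* averaged 78.0 ± 20.4 CPM and 129 ± 4.69 CPM (SD, n = 3 each), a log2 difference of 0.73 that did not pass the test (adjusted p = 0.069, edgeR) and did with DESeq2 (adjusted p = 0.0371). *Il6st* differed by 0.30 (adjusted p = 0.250, edgeR).

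*Stat3* was at 176, 150 and 178 CPM in the control mice labelled LCN2 KO and at 267, 270 and 313 CPM in the treated mice. It rose 1.69-fold (log2 fold change 0.76, SE 0.13, adjusted p = 0.00244, edgeR). *Socs3* was at 23.7, 18.3 and 43.9 CPM without IMQ and at 65.3, 70.9 and 105 CPM with IMQ, again without overlap, and rose 2.81-fold (log2 fold change 1.49, SE 0.35, adjusted p = 0.0103, edgeR). Neutrophil markers summed to between 33.6 and 77.8 CPM without IMQ and to between 3804 and 10492 CPM with IMQ, macrophage and monocyte markers to between 1064 and 2096 CPM and between 4277 and 6169 CPM, fibroblast markers to between 10909 and 12031 CPM and between 20351 and 21114 CPM, and keratinocyte markers to between 6003 and 7750 CPM and between 17918 and 29327 CPM. Of these lists 8 of 8, 8 of 10, 5 of 8 and 6 of 10 markers were called higher, and their part in the changes was not tested.

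**Figure D2:**
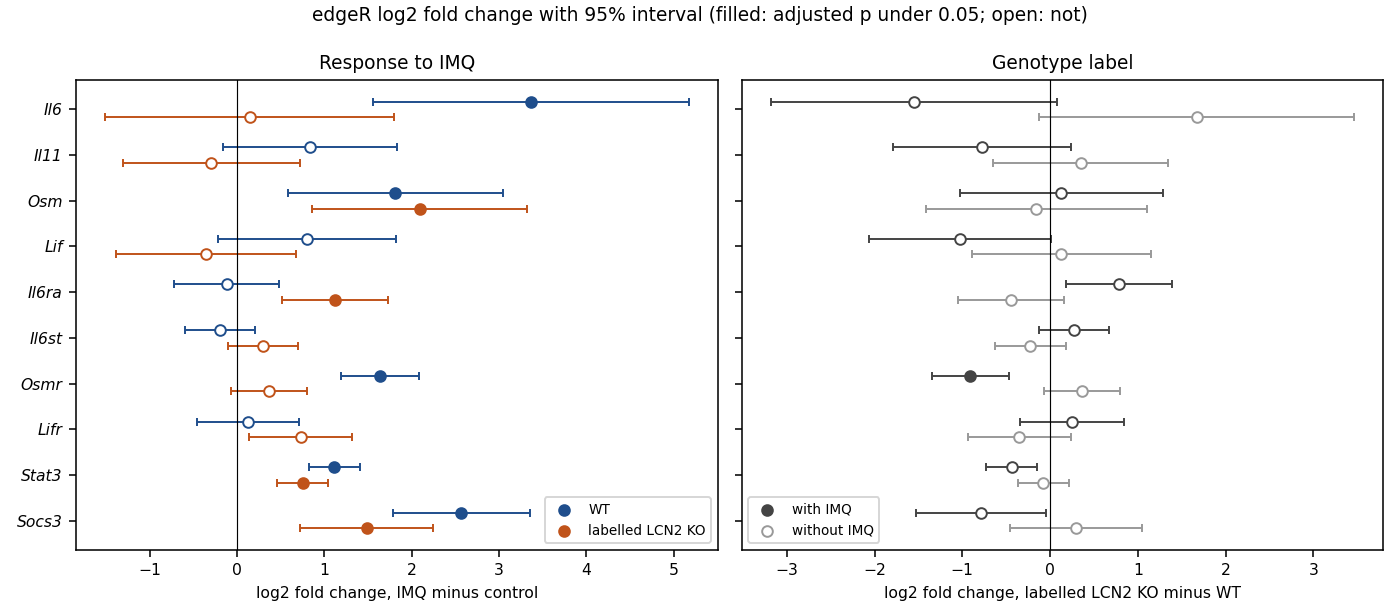
Log2 fold change of each of the 10 genes with its 95% interval (horizontal bars), for the response to IMQ in WT mice and in mice labelled LCN2 KO (left) and for mice labelled LCN2 KO against WT with and without IMQ (right). Filled points have an adjusted p under 0.05: 5 genes in WT mice and 4 in mice labelled LCN2 KO on the left, and *Osmr* with IMQ on the right.

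With IMQ, *Osmr* was the member that differed by genotype label. Of the 10 genes, 1 was called lower and 0 higher in treated mice labelled LCN2 KO than in treated WT mice, against 2.6% and 2.19% of all tested genes. The values quoted above put *Osmr* at 133 to 178 CPM in WT IMQ mice and at 73.5 to 94.0 CPM in IMQ mice labelled LCN2 KO, with no overlap. The difference was -0.91 on the log2 scale (SE 0.20, 95% interval -1.34 to -0.47, adjusted p = 0.0350, edgeR). The size held on leaving out single mice (-1.02 to -0.78), but the call did not: the adjusted p was 0.170 without WT IMQ mouse 1, 0.103 without WT IMQ mouse 3, 0.0945, 0.151 and 0.0688 without mouse 1, 2 or 3 of the IMQ mice labelled LCN2 KO, and 0.0245 without WT IMQ mouse 2. Over all genes, too, the calls turned on the mice included: 481 genes were called lower, 1438 without WT IMQ mouse 2 and 0 without WT IMQ mouse 1.

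The other members did not pass the main test. The median log2 difference over the 10 genes was -0.61, against -0.02 over all tested genes. Groups did not overlap for 5 genes that lay lower and 2 that lay higher in mice labelled LCN2 KO, against 17.3% and 16% of all tested genes. *Il6* was at 3.23 to 4.60 CPM in WT and at 0.672 to 1.70 CPM in mice labelled LCN2 KO, a log2 difference of -1.55 that did not pass the test (95% interval -3.18 to 0.09, adjusted p = 0.207, edgeR). *Stat3* differed by -0.43 (interval -0.73 to -0.14, adjusted p = 0.0747) and *Socs3* by -0.79 (interval -1.53 to -0.04, adjusted p = 0.166), and DESeq2 on all 12 mice put *Stat3* past the threshold (adjusted p = 0.0269). Fits of the compared mice alone also put *Il6* past it (DESeq2 adjusted p = 0.00525, edgeR 0.0454) and *Socs3* (DESeq2 0.00821, edgeR 0.0496). *Lif* differed by -1.02 (adjusted p = 0.190) and *Il11* by -0.78 (adjusted p = 0.300). *Osm* differed by 0.13, with an interval from -1.03 to 1.28. *Il6ra* lay higher by 0.79 (interval 0.19 to 1.40, adjusted p = 0.102), and passed the test without WT IMQ mouse 2 (1.03, adjusted p = 0.0461), with DESeq2 on all 12 mice (0.80, adjusted p = 0.0442) and on the compared mice (adjusted p = 0.00113), and with edgeR on the compared mice (adjusted p = 0.0312).

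Several cell type marker lists also differed between the treated groups, where 2.19% of all tested genes were called higher and 2.6% lower. Keratinocyte markers summed to between 30970 and 41010 CPM in WT and between 17918 and 29327 CPM in mice labelled LCN2 KO, with 3 of 10 called lower. Fibroblast markers summed to between 10393 and 11051 CPM in WT and between 20351 and 21114 CPM in mice labelled LCN2 KO, with 3 of 8 called higher. Endothelial markers ran from 408 to 700 CPM and from 847 to 878 CPM, mast cell markers from 349 to 437 CPM and from 582 to 680 CPM, and adipocyte markers from 1468 to 3490 CPM and from 3559 to 4891 CPM, with 0 of 6, 1 of 6 and 0 of 6 called. Macrophage and monocyte markers ran from 2920 to 4478 CPM in WT and from 4277 to 6169 CPM in mice labelled LCN2 KO, with 0 of 10 called, and T cell markers from 23.9 to 56.9 CPM and from 52.4 to 73.6 CPM, with 0 of 9 called. Both of these lists overlapped between the groups, as did neutrophil markers (6092 to 10208 CPM and 3804 to 10492 CPM). The part of these lists in the *Osmr* difference was not tested.

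**Figure D3:**
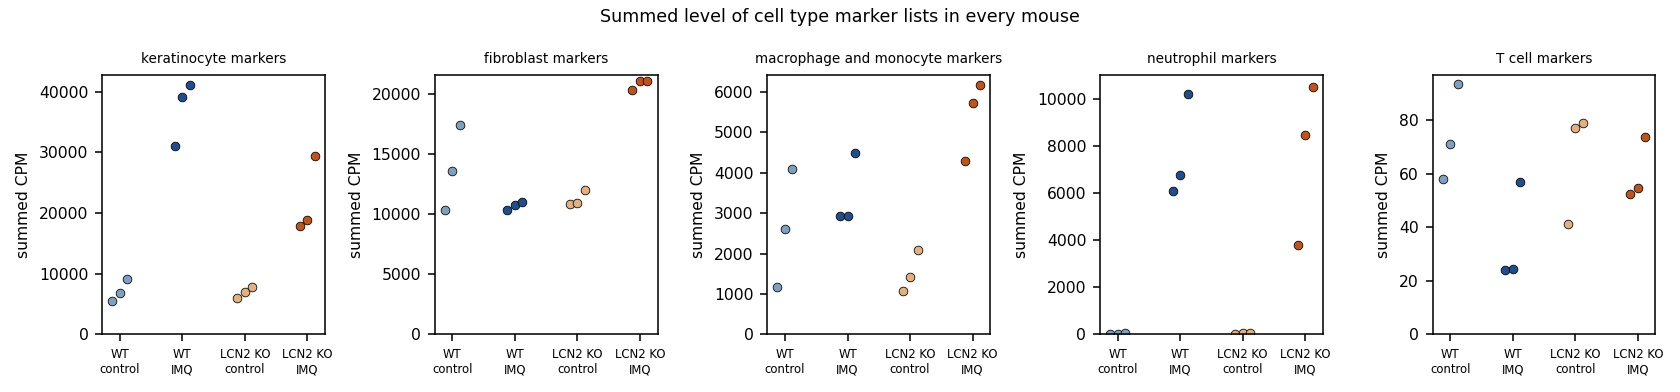
Summed CPM of the keratinocyte, fibroblast, macrophage and monocyte, neutrophil and T cell marker lists in the 4 groups, with 1 point per mouse ordered by value within a group and axes from 0. With IMQ, keratinocyte markers lie lower and fibroblast markers higher in mice labelled LCN2 KO than in WT mice.

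Whether IMQ acted differently in the 2 genotypes was tested as an interaction. *Osmr* was the only member called (log2 difference of the responses -1.27, SE 0.28, 95% interval -1.88 to -0.66, adjusted p = 0.0436, edgeR), so 1 of 10 was called lower and 0 higher, against 0.783% and 1.37% of all tested genes. It was called in 3 of the 12 fits without 1 mouse, without WT control mouse 2 or 3 or WT IMQ mouse 2, and the adjusted p ran from 0.0291 to 0.137 over the 12. Calls over all genes moved too, from 253 higher and 145 lower with all mice. They were 1015 and 912 without WT IMQ mouse 2, and 3 and 0 without WT IMQ mouse 1. *Il6* had the largest estimate, -3.22, with an interval from -5.65 to -0.79, and did not pass the test (adjusted p = 0.117). *Il6ra* had an estimate of 1.24 (adjusted p = 0.0974), *Socs3* of -1.08 (adjusted p = 0.199) and *Stat3* of -0.36 (adjusted p = 0.260). *Il6ra* passed the edgeR test without WT IMQ mouse 2 (1.47, adjusted p = 0.0436) or WT control mouse 3 (1.45, adjusted p = 0.0441). DESeq2 on all 12 mice put *Il6* (-3.27, adjusted p = 0.0281) and *Il6ra* (1.23, adjusted p = 0.0314) past the threshold. The WT response entering each of these estimates shares its mice with the comparison within WT.

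Without IMQ, 0 of the 10 genes were called by genotype label, with edgeR or with DESeq2 on all 12 mice. Over all tested genes, edgeR called 0.0054% higher and 0.0054% lower, and DESeq2 called 61 higher and 53 lower of 18529. Control groups overlapped for all 10 genes, against 4.19% and 5.18% of all tested genes whose groups did not overlap with mice labelled LCN2 KO higher or lower. *Il6* had the widest interval, a log2 difference of 1.67 from -0.12 to 3.46. *Osmr* differed by 0.36 (interval -0.07 to 0.80) and *Stat3* by -0.07 (interval -0.37 to 0.22).

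Under another rule, a fold above 2 with an unadjusted p under 0.05, 5 members were called higher by IMQ in WT mice and 3 in mice labelled LCN2 KO (*Stat3*, at 1.69-fold, was not), with 0 lower in either. Of all tested genes 8.4% and 9.79% were called higher and lower in WT mice, and 8.59% and 8.37% in mice labelled LCN2 KO. By genotype label 0 members were called, with IMQ (3.1% higher and 3.35% lower of all tested genes) or without it (1.35% and 0.928%). Between the responses 1 was called higher and 3 lower, against 6.06% and 4.91% of all tested genes.

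Levels of different genes were compared per length, as CPM per kb of annotated exon. The length counts every base in any annotated exon of a gene, and the transcripts expressed here may be shorter. In WT control mice *Il6st* was highest at 32.3 ± 6.40 CPM per kb (SD, n = 3), followed by *Stat3* at 18.6 ± 2.86, *Il6ra* at 12.7 ± 4.55, *Lifr* at 9.22 ± 4.01, *Socs3* at 8.05 ± 3.20 and *Osmr* at 4.04 ± 0.944. *Il6ra*, *Lifr* and *Socs3* did not differ beyond their spread. The ligands lay below 1 CPM per kb, from *Lif* at 0.863 ± 0.531 down to *Il6* at 0.144 ± 0.173, each within the summed SDs of its neighbour. With IMQ, *Socs3* was at 47.9 ± 10.4 and *Stat3* at 40.2 ± 2.24 CPM per kb in WT mice, both above *Il6st* at 28.2 ± 6.65, and *Osmr* at 12.6 ± 1.90 was level with *Il6ra* at 11.7 ± 3.20 and *Lifr* at 10.1 ± 1.00. In treated mice labelled LCN2 KO, *Il6st* came first at 34.1 ± 2.77, within the summed SDs of *Stat3* at 29.8 ± 2.69, *Il6ra* reached 20.3 ± 0.839 and *Osmr* was lowest of the receptor chains at 6.72 ± 0.907 CPM per kb.

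The ratio of *Osmr* to *Lifr* per length describes the shift among the receptor chains that pair with *Il6st*. It was 0.479, 0.369 and 0.544 in WT control mice and 1.64, 1.12 and 1.06 in WT IMQ mice, so *Osmr* passed *Lifr* in every treated WT mouse. It was 0.683, 0.783 and 0.714 in mice labelled LCN2 KO without IMQ and 0.491, 0.551 and 0.639 with IMQ, below 1 in all 6. The ratio of *Il6ra* to *Il6st* was 0.414 ± 0.0300 in WT IMQ mice and 0.598 ± 0.0444 in IMQ mice labelled LCN2 KO (SD, n = 3 each). Both ratios are built from values tested above, depend on these annotated lengths and were given no test.

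**Figure D4:**
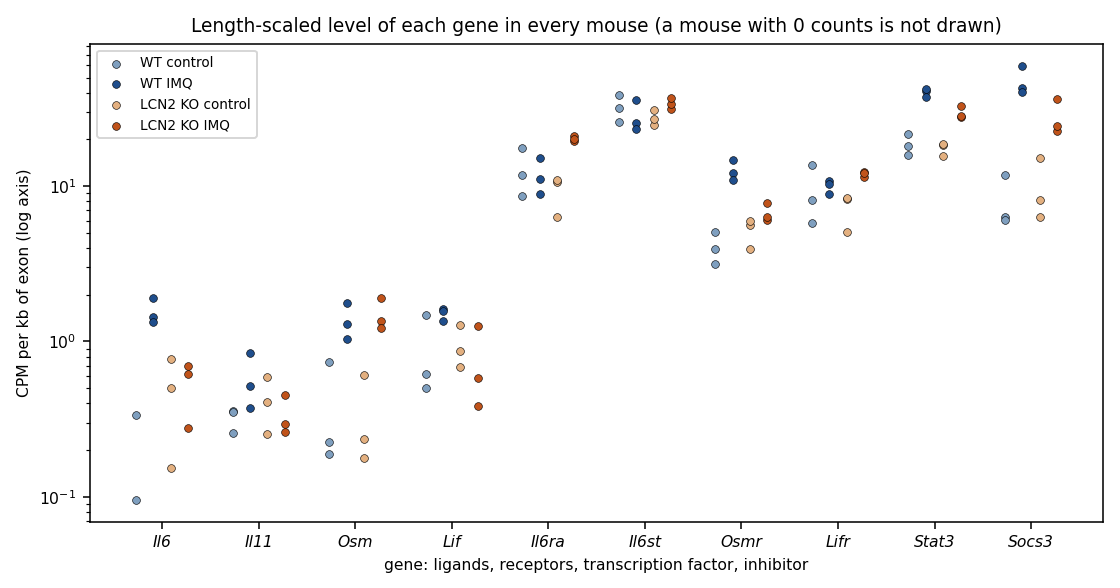
Level of each of the 10 genes per kb of exon in every mouse (log axis, 1 point per mouse), grouped as ligands, receptor chains, transcription factor and inhibitor. The ligands lie below 2 CPM per kb in every mouse and the receptor chains above 3, and in each treated WT mouse *Osmr* lies above *Lifr*.

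Among the other ligands of the family (5 of 7 listed genes were tested, the rest had too few reads), 2 were called higher by IMQ in WT mice and 2 in mice labelled LCN2 KO, with 0 lower in either, against 14.2% and 14.1% of all tested genes called higher. *Clcf1*, which encodes cardiotrophin-like cytokine factor 1, was at 3.28, 3.91 and 4.25 CPM in WT control mice and at 72.5, 25.5 and 77.5 CPM in WT IMQ mice. WT IMQ mouse 2 was well below the other treated WT mice, yet above all controls, and *Clcf1* rose by 3.94 on the log2 scale (SE 0.42, adjusted p = 6.8e-05, edgeR). In mice labelled LCN2 KO it was at 5.35, 5.28 and 5.54 CPM without IMQ and at 10.5, 11.9 and 22.8 CPM with IMQ (log2 fold change 1.48, adjusted p = 0.0180), a call lost without control mouse 2 (adjusted p = 0.0507), control mouse 3 (0.0552) or IMQ mouse 3 (0.0819). With IMQ it was lower in mice labelled LCN2 KO than in WT by -1.96 (adjusted p = 0.0276, edgeR), a call lost in 5 of the 6 fits without 1 mouse (adjusted p from 0.058 to 0.144) and kept without WT IMQ mouse 2 (adjusted p = 0.00366), with log2 differences from -2.38 to -1.70 over the 6. It was the only one of the 5 tested other ligands called in that comparison, where 2.6% of all tested genes were called lower.

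*Ebi3*, a subunit of IL-27 and IL-35, was at 4.48, 7.69 and 1.75 CPM in WT control mice and at 10.7, 28.0 and 6.35 CPM in WT IMQ mice, which overlapped. Its log2 fold change of 1.68 (adjusted p = 0.0427, edgeR) dropped to 0.86 (adjusted p = 0.210) without WT IMQ mouse 2, and the call was also lost without WT control mouse 1 (1.65, adjusted p = 0.116), WT control mouse 3 (1.29, adjusted p = 0.114) or WT IMQ mouse 1 (1.87, adjusted p = 0.0633). In mice labelled LCN2 KO it was at 4.73, 2.34 and 3.30 CPM without IMQ and at 19.1, 19.0 and 19.2 CPM with IMQ, a rise of 2.45 (adjusted p = 0.0102).

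Of 4 other receptor chains, 2 were called lower by IMQ in WT mice and 0 higher, against 14.3% and 14.2% of all tested genes. *Il11ra1*, the receptor chain for IL-11, averaged 132 ± 11.5 CPM in WT control and 64.3 ± 1.96 CPM in WT IMQ mice (log2 fold change -1.04, adjusted p = 0.000209, edgeR), and in mice labelled LCN2 KO it fell by 0.63 on the log2 scale (adjusted p = 0.00562). *Cntfr*, the receptor chain for ciliary neurotrophic factor, had a log2 fold change of -1.48 in WT mice (adjusted p = 0.0313), a call lost in 5 of the 6 fits without 1 mouse.

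Among 10 JAK kinases and other STATs, 2 were called higher and 0 lower by IMQ in WT mice, and 2 higher and 2 lower in mice labelled LCN2 KO, against 14.2% and 14.3% of all tested genes in WT mice and 14.1% and 11.2% in mice labelled LCN2 KO. *Stat6*, which transmits IL-4 and IL-13 signals, rose from 114 ± 18.9 to 180 ± 17.4 CPM in WT mice and from 104 ± 9.19 to 162 ± 12.2 CPM in mice labelled LCN2 KO (SD, n = 3 each, adjusted p = 0.0039 and 0.00567, edgeR). *Jak2* rose in WT mice (log2 fold change 0.49, adjusted p = 0.0302) and *Jak1* in mice labelled LCN2 KO (0.65, adjusted p = 0.0238). *Stat2*, a transmitter of interferon signals, fell in mice labelled LCN2 KO by 1.27 on the log2 scale (adjusted p = 0.00688). The calls of *Jak2* and *Jak1* were each lost in 4 of the 6 fits without 1 mouse. With IMQ, 0 of the 10 were called by genotype label, against 2.19% of all tested genes called higher and 2.6% called lower.

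Among 15 inhibitors of JAK-STAT signalling other than *Socs3*, 3 were called higher and 1 lower in WT mice and 4 higher and 2 lower in mice labelled LCN2 KO, where the shares of all tested genes were 14.2% and 14.3% and then 14.1% and 11.2%. In WT mice *Ptpn1*, a tyrosine phosphatase, rose by 0.66, *Socs5* by 0.56 and *Socs6* by 0.48 on the log2 scale, and *Socs2* fell by 1.20 (adjusted p from 0.00728 to 0.0328, edgeR). *Socs2* dropped by 0.58 (adjusted p = 0.145) without WT control mouse 2, which was at 61.1 CPM against 20.4 and 26.5 CPM in the other control mice, and its call was also lost without WT IMQ mouse 1 or 3 (adjusted p = 0.116 and 0.104). The phosphatases *Ptpn6* and *Ptpn1* rose by 1.06 and 0.73 and *Pias4* by 0.43 in mice labelled LCN2 KO, and *Cish* and *Socs7* fell by 0.88 and 0.40 (adjusted p from 0.00536 to 0.0338). Leaving out 1 mouse ended the call of *Pias4* in 5 of 6 fits, of *Ptpn6* in 4 and of *Cish* and *Socs7* in 3. With IMQ, *Cish* and *Socs5* were lower in mice labelled LCN2 KO than in WT mice (2.6% of all tested genes were called lower), by log2 differences of -1.12 and -0.64 (adjusted p = 0.0347 and 0.0319), calls lost in 4 and 5 of the 6 fits without 1 mouse.

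Of 24 tested genes known as STAT3 targets, 10 were called higher and 1 lower by IMQ in WT mice (median log2 change 0.54), and 11 higher and 1 lower in mice labelled LCN2 KO (median 0.91). Of all tested genes 14.2% were called higher and 14.3% lower in WT mice, and 14.1% and 11.2% in mice labelled LCN2 KO. *Saa3*, an acute phase serum amyloid gene, was at 1.06, 1.85 and 0.266 CPM in WT control mice and at 522, 955 and 794 CPM in WT IMQ mice, and it rose by 9.43 on the log2 scale (adjusted p = 1.95e-05, edgeR). In mice labelled LCN2 KO it rose by 9.03, to 387, 630 and 1347 CPM. Without 1 mouse the rise ran from 9.01 to 10.10 in WT mice and from 8.40 to 10.16 in mice labelled LCN2 KO, called in every such fit. *Bcl3*, whose product is a cofactor of NF-kB, was at 9.15, 8.98 and 6.11 CPM in WT control mice and at 68.2, 70.0 and 60.8 CPM in WT IMQ mice, a rise of 3.03 on the log2 scale (adjusted p = 7.84e-06). *Bcl3* was at 15.3, 9.59 and 19.6 CPM in mice labelled LCN2 KO without IMQ and at 35.0, 31.5 and 27.7 CPM with IMQ, so no treated mouse reached the treated WT mice.

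*Timp1*, an inhibitor of metalloproteinases, rose in both genotypes (2.00 in WT mice and 3.02 in mice labelled LCN2 KO, log2, adjusted p = 0.00472 and 0.000802, edgeR), and its rise in mice labelled LCN2 KO was 2.25 without IMQ mouse 3, which was at 96.7 CPM against 27.1 and 34.8 CPM in the other treated mice. *Hif1a*, a transcription factor of the response to low oxygen, and *Vegfa*, an angiogenic growth factor, rose by 1.91 and 1.78 in WT mice. In mice labelled LCN2 KO the other leading changes were *Cebpd*, a transcription factor (2.59), *Hp*, which encodes haptoglobin (1.93), and *Junb*, a subunit of AP-1 (1.54). With IMQ, 3 of the 24 were lower in mice labelled LCN2 KO than in WT and 0 higher, against 2.6% and 2.19% of all tested genes: *Bcl3* (-1.08, adjusted p = 0.0325), *Hif1a* (-0.64, adjusted p = 0.0234) and *Myc* (-0.51, adjusted p = 0.0390). Each of these calls was lost in 5 of the 6 fits without 1 mouse and held without WT IMQ mouse 2. The median over the 24 genes in that comparison was 0.01.

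**Figure D5:**
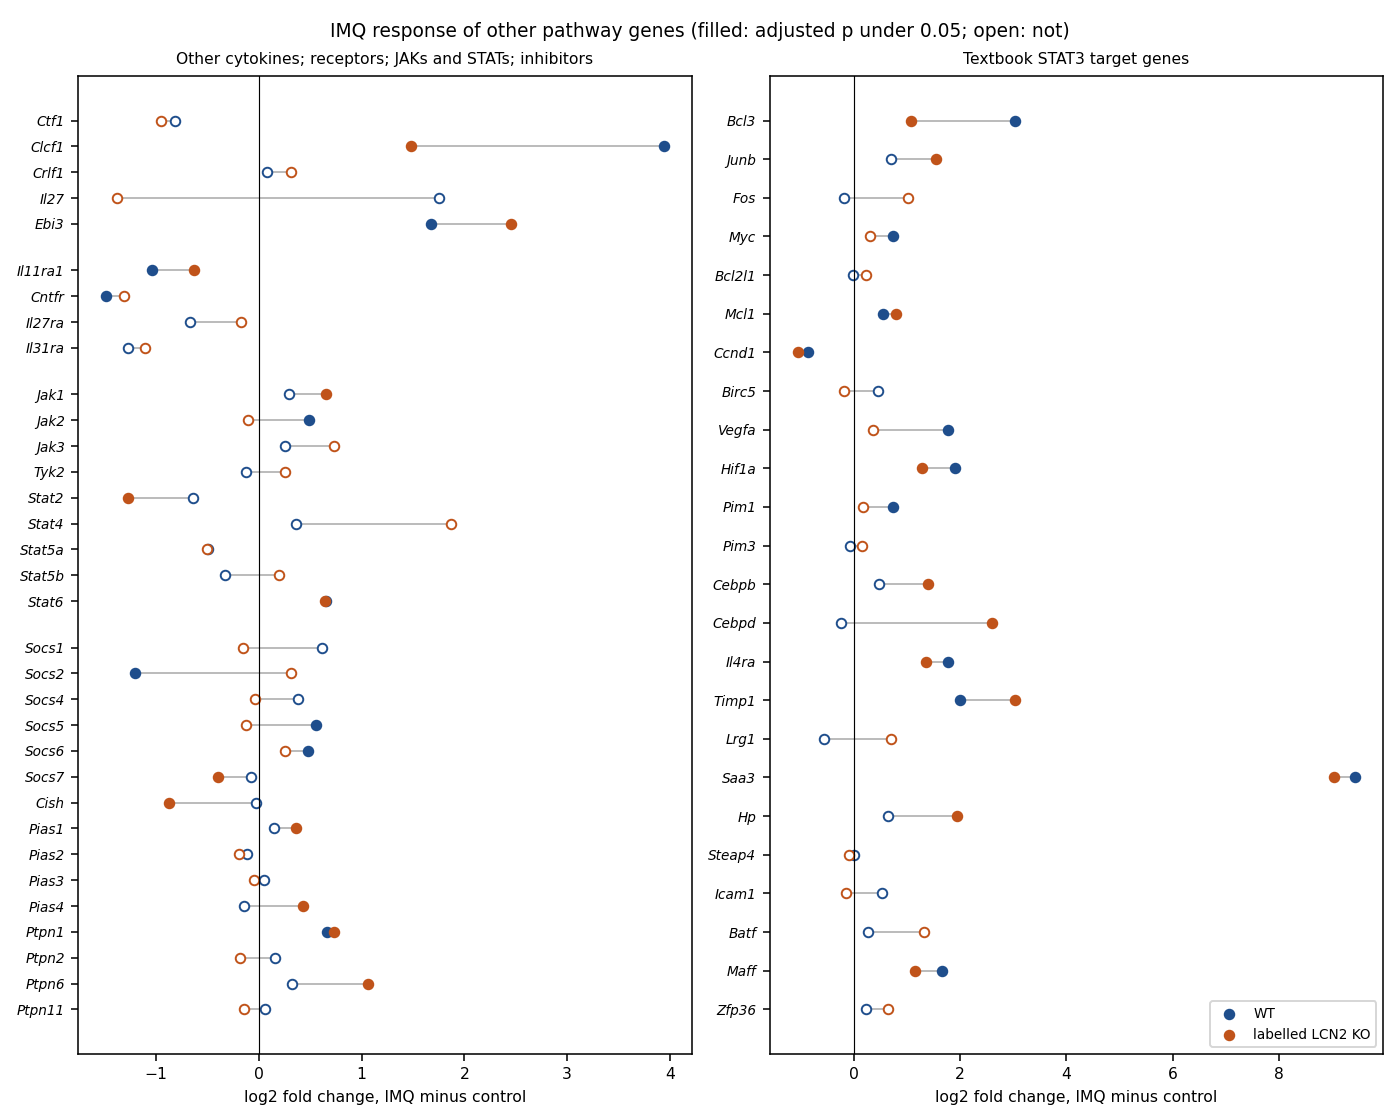
Log2 fold change with IMQ in WT mice and in mice labelled LCN2 KO for genes of the other pathway lists that were tested and are reported here (left: other ligands, other receptor chains, JAK kinases and other STATs, inhibitors) and of the STAT3 target list (right), with a grey line joining the genotypes. Filled points have an adjusted p under 0.05, and *Clcf1* (3.94 against 1.48) and *Bcl3* lie farther right in WT mice.

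The genes whose pattern over the 12 mice was most like that of a member were ranked among 15983 tested genes with a mean of at least 1 CPM, by the root mean square difference of log2 CPM centred on each gene's mean. For *Il6* they were *Cxcl1*, a neutrophil-attracting chemokine (0.592), *Kif17* (0.740) and *Bcl2l15* (0.888), against a spread of *Il6* itself of 1.75. For *Osm* they were *Fam167b* (0.391), *Cd14*, a co-receptor for bacterial lipopolysaccharide on monocytes (0.414), and *Dok3* (0.417). For *Osmr* they included *Csrnp1* (0.186) and *Ttc39b* (0.192), and for *Socs3* *Serpinb10* (0.314), *Cdk5r1* (0.343) and *Cgref1* (0.351). *Il6st* was most like *Rhoq* (0.0722), *Sri* (0.0846) and *Rnf13* (0.0910), all within a spread of *Il6st* itself of 0.234. The 12 points share 4 groups, and the ranking describes likeness only.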

How the data were processed

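RNA-seq libraries of back skin from 12 mice were used, in 4 groups of 3 assigned by the sample labels. The authors deposited raw counts of paired reads on 56923 Ensembl genes. The submitters' processing notes name HISAT and mm8 without versions or roles, and the counting tool, its annotation and its strand setting are not given in the sources used here. Symbols, positions and exon lengths came from GENCODE M21 on GRCm38, which holds 52073 of the identifiers (91.5%), and the unmatched ones hold 0.567% of the counts. Promoter windows came from RefSeq on GRCm38.p6, which matched 9 of the 10 members.

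Counts were normalized by TMM, filtered with filterByExpr (minimum count 10, minimum total 15) and tested with edgeR 4.0.16 in R 4.3.3 by a robust quasi-likelihood fit of 4 group means over 12 mice, on 18529 genes. The common biological coefficient of variation was 0.253. A gene was called at a Benjamini-Hochberg adjusted p under 0.05 over all tested genes, without a fold threshold. All 10 members are named, as are, of each pathway list, up to 5 called genes with the largest change per comparison and the 3 genes most like each of 5 members, with *Lcn2* as the check of the label. A few genes that this rule names are not reported here. Members and lists were chosen with earlier results of these data known. Motifs were searched on both strands of the 250 bases before each RefSeq start. Scripts were tested on simulated counts. Plots were made in Python 3.11.15 (matplotlib 3.10.9).

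Alternatives were RLE and upper-quartile scaling, other filters, DESeq2 1.42.0, fits of the compared mice only, the replicate block, thinned counts, a rule of a fold above 2 with unadjusted p under 0.05, and each mouse left out. No library was a copy of another of its group by a chi-square test of counts.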

Additional observations from a re-analysis of the deposited data

Results flagged for a closer look

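For 3 genes the response to IMQ differed between WT mice and mice labelled LCN2 KO by the interaction test of edgeR. *Osmr* had a log2 difference of the responses of -1.27 (adjusted p = 0.0436), with a rise of 1.64 in WT mice and a difference of 0.37 in mice labelled LCN2 KO. *Clcf1* had a difference of -2.46 (adjusted p = 0.0464), with rises of 3.94 and 1.48, and kept its call in 3 of the 12 fits without 1 mouse (adjusted p from 0.00637 to 0.140). *Bcl3* had a difference of -1.96 (adjusted p = 0.0246), with a rise of 3.03 in WT mice, and kept its call in 5 of the 12 (adjusted p from 0.0138 to 0.0793). In mice labelled LCN2 KO *Bcl3* was also higher with IMQ, at a mean of 31.4 CPM against 14.8 CPM without it, and these groups did not overlap. In all 12 fits each of the 3 genes kept its direction, and the calls over all genes also turned on the mouse left out. With the replicate block all 3 calls were lost (edgeR adjusted p = 0.0924 for *Osmr*, 0.0651 for *Clcf1* and 0.0587 for *Bcl3*). The call of *Clcf1* was also lost without a filter on low counts (edgeR adjusted p = 0.0866). Between the treated groups, keratinocyte marker sums were lower and fibroblast marker sums higher in mice labelled LCN2 KO than in WT mice. By the interaction test 0 of 10 keratinocyte markers were called, and 3 of 8 fibroblast markers were called higher. The part of these markers was not tested.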

How the results depend on the processing

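Of 775 member values under the alternatives, 712 kept direction and side of the threshold, 25 lost their call, 18 gained one and 20 turned sign, all 20 uncalled and on leaving out 1 mouse. In WT mice, members called higher went from 5 to 3 with at least 10 counts in every library, since *Il6* and *Osm* were then not tested. Over all genes, 2327 of 14779 tested were then called higher. With IMQ, members called higher in mice labelled LCN2 KO went from 0 to 1 with DESeq2 on all 12 or on the compared mice and with edgeR on the compared mice, and members called lower from 1 to 2, 4 and 3 in these fits, and to 0 under the rule of a fold above 2 with unadjusted p under 0.05. Over all genes those fits moved the calls from 405 higher and 481 lower to 1278 and 1372, 1721 and 1572, and 1077 and 817. For the difference of responses, 1 was called higher with DESeq2 and under the fold rule, and 2 and 3 lower, while DESeq2 moved the calls over all genes from 253 higher and 145 lower to 1109 and 983. The replicate block gave 0 lower in both comparisons (*Osmr* adjusted p = 0.0698 and 0.0924), with 77 higher and 59 lower, and 7 and 3, over all genes. Same-numbered mice are different animals, and the correlation of their deviations averaged -0.05 (2 of 18 pairs over 0.1), with a range from -0.54 to 0.19. It averaged 0.03 between mice of other numbers. The main test did not pair mice by number, and whether the numbers mark a shared batch was not tested. Leaving out 1 mouse, 0 to 1 members were called in each direction of both comparisons. The cause of these changes was not tested.

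Turning signs, the log2 ranges without 1 mouse were, in WT mice, -0.35 to 0.20 for *Il6ra* and -0.12 to 0.52 for *Lifr*. In mice labelled LCN2 KO they were -0.25 to 0.65 for *Il6* and -0.57 to 0.028 for *Il11*. With IMQ the range was -0.085 to 0.36 for *Osm*. Without IMQ they were -0.91 to 0.77 for *Osm*, -0.16 to 0.78 for *Lif*, -0.59 to 0.074 for *Lifr*, -0.18 to 0.072 for *Stat3* and -0.15 to 0.70 for *Socs3*. For the difference of responses the range for *Osm* was -0.63 to 1.04.

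Upper-quartile scaling shifted the median of all genes to -0.13 in both IMQ comparisons and the calls in WT mice from 2633 higher and 2654 lower to 2151 and 3507, and in mice labelled LCN2 KO from 2611 and 2080 to 2204 and 2825, and turned no member's direction. Depth limits *Il6*, *Il11* and *Osm*, whose control counts ran from 0 to 42 per mouse.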
